A study of Mus musculus with 8 samples.

Results

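The miRNAs described here are markers of vessels and of red cells in whole liver: miR-126-3p and miR-126-5p, which are made mainly by endothelial cells, and miR-451, miR-144 and miR-486, which are made mainly by erythroid cells. They were chosen by name (mmu-miR-126-3p, mmu-miR-126-5p, mmu-miR-451, mmu-miR-144 and mmu-miR-486 on the array) and are 5 of its 567 mouse miRNAs. Livers of 4 db/db mice were compared with livers of 4 db/+ mice, 1 array per animal. The db/db mouse carries 2 defective copies of the leptin receptor gene in all its cells and becomes obese and diabetic, and the db/+ mouse carries 1 such copy and served as the control. The labels name C57BL/KsJ as the background of db/db, and the series text reports higher body weight and plasma glucose in the diabetic group. The sources used here do not give the age at collection or say whether blood was flushed from the livers.

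miR-126-3p and miR-126-5p are the arms of one hairpin, encoded within Egfl7, a gene of the endothelium. In vessels miR-126-3p is known to dampen inhibitors of growth factor signalling, and so to support vessel integrity. miR-451 and miR-144 are transcribed together under the erythroid factor GATA1, and miR-486 lies within Ank1, the gene of the red cell membrane protein ankyrin. miR-451 is known for an unusual route of maturation, in which Dicer is bypassed and Ago2 cuts the hairpin. Mature red cells keep miR-451 in large amounts.

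The mature sequences show the seeds by which these miRNAs choose their targets. RefSeq (GRCm38.p6) held 3 of the 5 members under names that matched, and capitals mark the seed, bases 2 to 8.
miR-126-3p: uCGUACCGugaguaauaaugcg
miR-451: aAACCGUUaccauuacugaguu
miR-144: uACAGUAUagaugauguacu
No seed was shared, neither among these 3 nor with any of the other entries among the 1679 mature mouse miRNAs of that table. The hairpins follow with the mature strand in capitals, since they show how miR-451 differs from the other members in where it is cut.
Mir126a: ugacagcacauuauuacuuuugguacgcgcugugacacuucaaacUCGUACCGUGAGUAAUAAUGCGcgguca
Mir451a: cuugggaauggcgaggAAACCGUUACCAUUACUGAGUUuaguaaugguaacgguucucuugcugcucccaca
Mir144: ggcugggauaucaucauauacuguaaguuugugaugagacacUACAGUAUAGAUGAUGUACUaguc
miR-126-3p and miR-144 occupied the 3′ arms of their hairpins, at bases 46 to 67 of 73 and 43 to 62 of 66. miR-451 ran from base 17 to base 38 of 72, from the 5′ arm across the middle of the hairpin.

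Each member had 2 probes of 10 spots each, whose targets differed by 1 base in length. The targets, in mm9 coordinates of the array files, were chr2:26446925-26446943 for miR-126-3p, chr2:26446885-26446905 for miR-126-5p, chr11:77886688-77886709 for miR-451, chr11:77886549-77886568 for miR-144 and chr8:24253067-24253080 for miR-486. The miR-486 probes covered 13 and 14 bases, against 18 to 22 bases for the other members.

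Before scaling, the db/+ arrays differed 26.8-fold in overall brightness and the db/db arrays 1.26-fold. The db/+ replicate 1 was the brightest array (scale factor 5.63) and db/+ replicate 4 the dimmest (0.21). Those 2 arrays detected 255 and 91 mouse miRNAs, and the db/db arrays 133 to 166. All 8 arrays shared 1 slide, where the db/db arrays filled row 1 and the db/+ arrays row 2, and an effect of the row cannot be told apart from one of the strain. miR-122, the defining miRNA of hepatocytes, was detected on all 8 arrays. Below, signal is background-subtracted intensity, and level is the signal divided by the scale factor of its array, on a log2 scale.

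In the db/db livers no change was called for either vessel or red cell miRNAs. Of the 5 members, 3 could be tested, and 0 of these passed limma at an adjusted p of 0.05, where 19 of all 127 tested miRNAs, 15.0%, did so, 12 higher (9.45%) and 7 lower (5.51%) in db/db. That split was 6 and 8 after scaling to the 75th percentile, 9 and 8 after quantile normalization, and 10 and 11 after cyclic loess. An unadjusted p under 0.05 was reached by 0 of the 3 members and by 26.0% of all tested miRNAs, and SAM called 0 of the 3. In RNA from whole tissue, fewer cells of a type and less RNA per cell cannot be told apart. The 3 tested members had overlapping values in the strains, while 22.8% of all tested miRNAs did not overlap. miR-144 and miR-486 were each detected on some arrays of both strains but on all arrays of neither, so they were not tested and are described by their values.

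The endothelial miR-126-3p differed little between arrays. Its levels were 10.58, 11.06, 10.50 and 10.92 in db/+ replicates 1 to 4, and 10.68, 10.89, 10.90 and 11.00 in db/db replicates 1 to 4. All 4 db/db values lay inside the db/+ range. The mean was 10.76 ± 0.27 in db/+ and 10.87 ± 0.14 in db/db (SD, n = 4 each). The log2 fold change, db/db minus db/+, was 0.10 ± 0.17 (SE; limma adjusted p = 0.737), with a 95% confidence interval from -0.27 to 0.48. This interval spans from 0.827-fold to 1.39-fold, and the sign turned with 75th percentile scaling (-0.024) and cyclic loess (-0.0045). In db/+ the dimmer replicates 2 and 4 gave higher levels than the brighter replicates 1 and 3, and the same order held for miR-122 (15.99 and 15.93 against 14.57 and 15.02). The part of array brightness in these levels was not tested. Ranked from the highest SD over the 8 arrays to the lowest, miR-126-3p was number 110 of the 127 tested miRNAs (SD 0.20).

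The other arm of the hairpin, miR-126-5p, was dim, and 1 array decided its direction. Its signal was 250.1, 20.6, 60.6 and 3.46 in db/+ replicates 1 to 4, and 34.3, 36.7, 38.6 and 43.7 in db/db. After scaling the levels were 5.47, 5.19, 5.26 and 4.04 in db/+ and 5.34, 5.11, 5.28 and 5.36 in db/db. The low value belonged to db/+ replicate 4, the dimmest array and the 1 array that did not detect miR-126-5p. miR-126-5p entered the test only through db/db, the strain with the higher mean, where all 4 arrays detected it. The log2 fold change was 0.28 ± 0.28 (SE; limma adjusted p = 0.531; 95% confidence interval -0.35 to 0.91). Over the arrays that detected it, the mean was 5.31 ± 0.15 in db/+ (SD, n = 3) and 5.27 ± 0.11 in db/db (SD, n = 4), a difference of -0.038. Without db/+ replicate 4 the fit used those same arrays, scaled anew, and gave -0.14 (limma adjusted p = 0.680). The positive value of miR-126-5p thus rested on an array that did not detect it. The value was also negative with normexp background correction (-0.40), raw median intensities (-0.17) and array weights (-0.033).

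**Figure D1:**
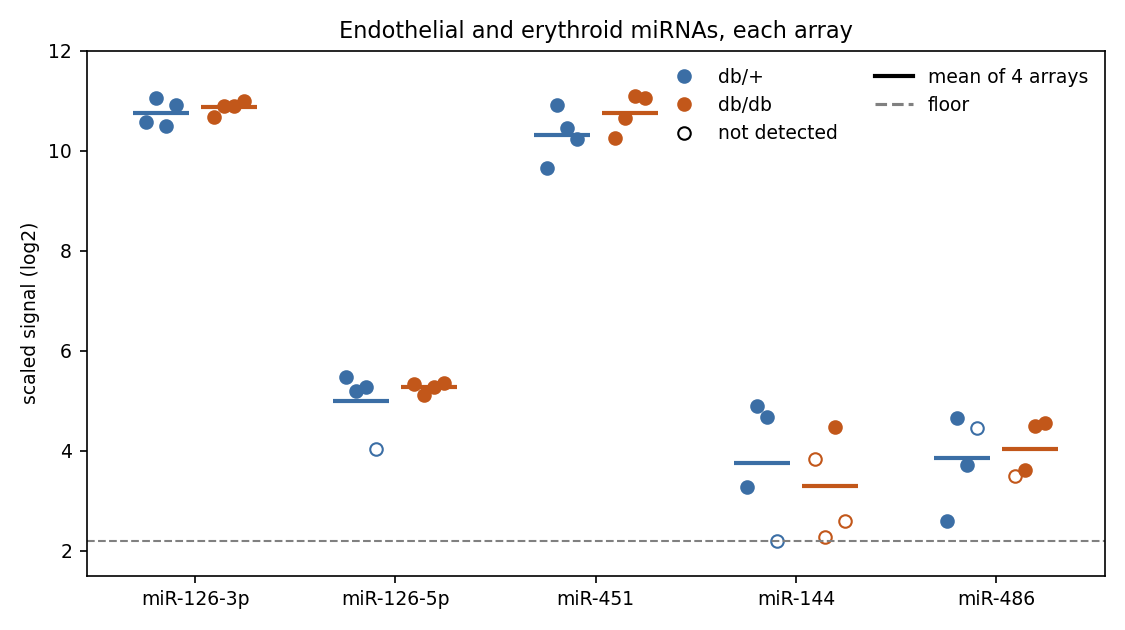
Scaled signal on a log2 scale (y axis) of each member (x axis) on each of the 4 db/+ arrays (blue) and 4 db/db arrays (orange), replicates 1 to 4 from left to right; horizontal lines are means and the dashed line is the floor. Open points, where a miRNA was not detected, lie at 4.04 for miR-126-5p and on 4 arrays for miR-144 and 2 for miR-486.

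The erythroid miR-451 had the largest difference of the 3 tested members. Levels were 9.65, 10.92, 10.45 and 10.23 in db/+ replicates 1 to 4 and 10.25, 10.65, 11.10 and 11.05 in db/db replicates 1 to 4. The db/db replicates 3 and 4 lay above every db/+ array, and the other two lay within the db/+ range. The lowest value was that of the brightest array, db/+ replicate 1. The mean was 10.31 ± 0.53 in db/+ and 10.76 ± 0.39 in db/db (SD, n = 4 each). Its log2 fold change of 0.45 ± 0.28 (SE, 1.36-fold) did not pass limma (adjusted p = 0.322, 95% confidence interval -0.19 to 1.08). That interval reaches from 0.878-fold to 2.12-fold. Without db/+ replicate 1 the log2 fold change was 0.23, and without db/+ replicates 1 and 4 it was 0.022.

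miR-144 comes from the same transcript as miR-451 and was at the limit of detection. Its signal was 54.8, 16.7, 40.0 and -0.65 in db/+ replicates 1 to 4 and 12.0, 5.13, 22.1 and 6.36 in db/db. It was detected on db/+ replicates 1, 2 and 3 and on db/db replicate 3. The scaled values overlapped, at 3.28, 4.89 and 4.67 on the detecting db/+ arrays and 4.47 on the detecting db/db array. The db/+ replicate 4 was at the floor. The means over all arrays were 3.76 ± 1.26 in db/+ and 3.29 ± 1.04 in db/db (SD, n = 4 each), a difference of -0.47 that is smaller than either SD. This difference has no settled sign over the alternatives. It was 0.093 without db/+ replicate 2, 0.0092 without db/db replicate 2 and 0.028 with a lower floor. It was -1.09 without db/+ replicate 4 and -1.54 without db/+ replicates 1 and 4. Leaving out arrays also recomputed the scale factors and the floor, so these changes do not belong to the array left out alone. The part of the floor in them was not tested. miR-144 was well above background on 2 db/+ arrays and 1 db/db array.

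miR-486 was detected on 3 arrays of each strain. Its signal was 34.0, 14.1, 20.6 and 4.59 in db/+ replicates 1 to 4 and 9.57, 13.0, 22.5 and 24.9 in db/db. Of these, db/+ replicate 4 and db/db replicate 1 did not detect it. The means of the scaled values were 3.85 ± 0.93 in db/+ and 4.04 ± 0.56 in db/db (SD, n = 4 each), a difference of 0.19. This sign was not settled either, at -0.22 without db/+ replicate 1, -0.35 with raw median intensities and -0.65 with normexp, against 0.46 without db/+ replicate 2. It was well above background on 1 db/+ array and 2 db/db arrays. Its probe with a target of 13 bases was well above background on 0 of 8 arrays and its probe with 14 bases on 3, so no direction was read from either probe.

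For the tested members the differences were 0.087 and 0.11 for the shorter and the longer probe of miR-126-3p, 0.40 and 0.48 for miR-451, and 0.61 and 0.18 for miR-126-5p. With the scale factors kept, leaving out db/+ replicate 4, which did not detect miR-126-5p, gave its probes opposite signs, at 0.068 and -0.081. With the same factors the probes of miR-126-3p and miR-451 kept 1 sign without that array. The fit without that array was scaled anew and gave -0.14 for miR-126-5p. The signs of the miR-126-5p probes after scaling anew were not tested. Spots of 1 probe on 1 array varied little for the bright members, with a median coefficient of variation of 3.38% and 2.66% for the probes of miR-126-3p and 3.85% and 4.11% for those of miR-451. For miR-126-5p it was 16.8% and 7.14%, and on db/+ replicate 4 the spots of its shorter probe had an SD of 4.42 around a mean of 1.01.

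**Figure D2:**
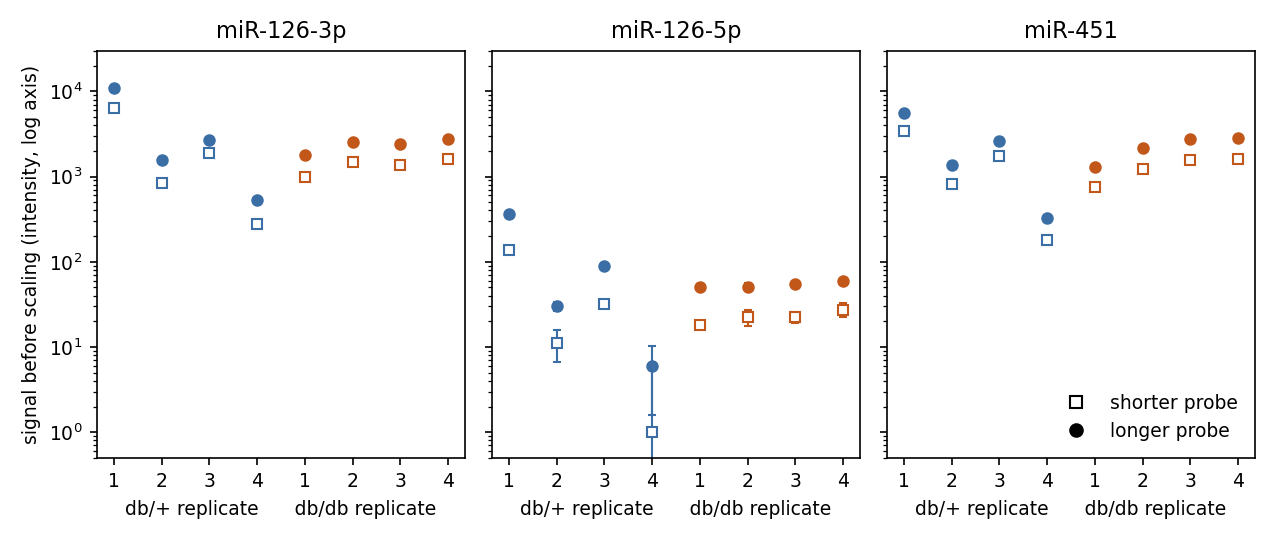
Signal before scaling (y axis, log axis) of the shorter probe (open squares) and the longer probe (filled circles) of 3 members on each array (x axis; db/+ in blue, db/db in orange); error bars are the SD over 7 to 10 spots and a bar reaching below the axis is cut there. The db/+ arrays span from 253 to 4524 for miR-451 averaged over its probes, and the db/db arrays from 1035 to 2246.

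A ratio of 2 miRNAs on the same array carries no scale factor, so it does not depend on how the arrays were brought to one level. Each tested member was set against miR-122, which asks for endothelial or erythroid RNA relative to hepatocyte RNA. miR-126-3p over miR-122 was -4.61 ± 0.47 in db/+ and -4.61 ± 0.17 in db/db on the log2 scale (SD, n = 4 each; difference 0.0033, two-sided exact permutation p = 1). From the brightest to the dimmest db/+ array (replicates 1, 3, 2 and 4) it fell, at -3.99, -4.52, -4.93 and -5.01. Its difference was 0.21 without db/+ replicate 1, with 4 of 4 db/db arrays above the db/+ mean. It was -0.13 without db/+ replicate 4, with 1 of 4 above. miR-126-5p over miR-122 fell in the same order, and miR-451 over miR-122 did not (-4.92, -4.57, -5.07 and -5.70). The part of array brightness in the ratios was not tested. miR-451 over miR-122 was -5.06 ± 0.47 in db/+ and -4.71 ± 0.39 in db/db, a difference of 0.35 (exact permutation p = 0.314, adjusted p = 0.786), and it was above the db/+ mean in 3 of 4 db/db arrays. Without db/+ replicate 4 that difference was 0.14, and without db/+ replicates 1 and 4 it was 0.10. For miR-126-5p over miR-122 the difference was 0.18 (exact permutation p = 0.771, adjusted p = 0.964), with a db/+ range from -11.89 to -9.10. The lowest of these is db/+ replicate 4, which did not detect miR-126-5p. With that array 4 of 4 db/db arrays lay above the db/+ mean, and without it 0 of 4 did, at a difference of -0.32.

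The arms of the miR-126 hairpin kept ratios that overlapped between strains. miR-126-3p over miR-126-5p was 5.10, 5.87, 5.24 and 6.88 in db/+ replicates 1 to 4 and 5.34, 5.78, 5.62 and 5.63 in db/db (difference -0.18, exact permutation p = 0.771, adjusted p = 0.964). The 6.88 comes from the array that did not detect miR-126-5p. miR-451 over miR-126-3p, erythroid relative to endothelial, was -0.93, -0.14, -0.051 and -0.69 in db/+ and -0.42, -0.24, 0.20 and 0.050 in db/db. Its difference was 0.35 (exact permutation p = 0.257, adjusted p = 0.786), with 4 of 4 db/db arrays above the db/+ mean, or 3 of 4 without db/+ replicate 1 (difference 0.19) or db/+ replicate 4. Without both it was -0.010. 5 ratios were tested, and the smallest p that 4 against 4 arrays allow is 0.0286.

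**Figure D3:**
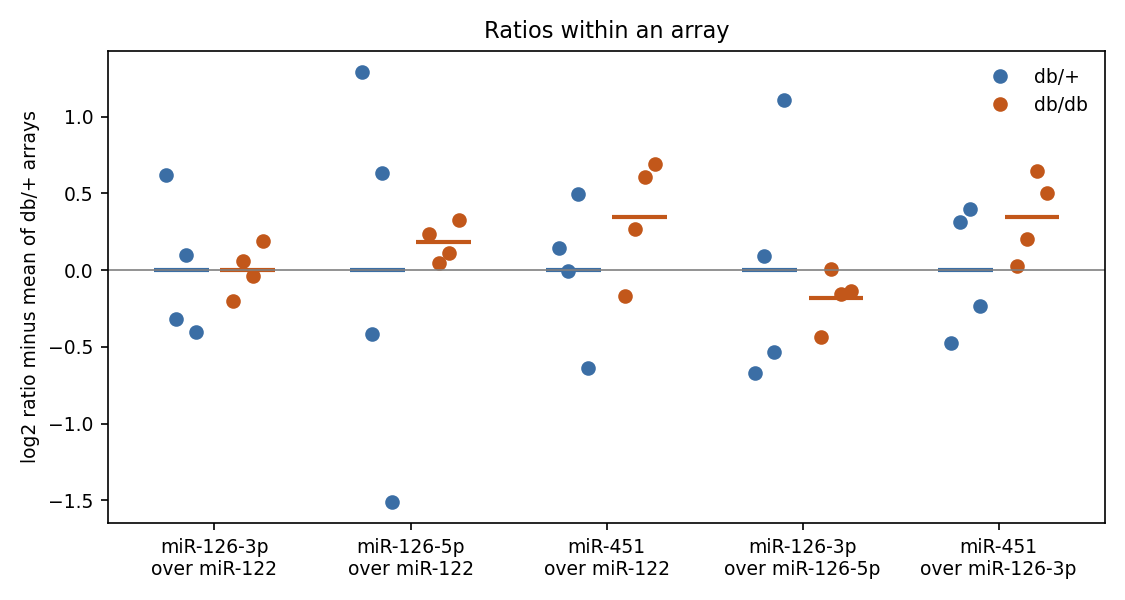
Log2 ratio of 2 miRNAs on the same array, minus the mean of the 4 db/+ arrays (y axis), for 5 ratios (x axis); points are arrays of db/+ (blue) and db/db (orange) and lines are means. The strains overlap in all 5 ratios, and the means of db/db lie between -0.18 and 0.35.

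Over the 8 arrays the members did not form one pattern. Pearson's r of the levels was -0.30 between miR-126-3p and miR-126-5p, 0.69 between miR-126-3p and miR-451, and 0.12 between miR-126-5p and miR-451. These are descriptions over 8 arrays that differ in brightness. The tested miRNAs most like miR-126-3p were miR-25 (r = 0.95), miR-92a (0.94) and miR-15b (0.93). After each strain's mean was subtracted the same 3 had r of 0.97, 0.94 and 0.95. For miR-126-5p they were miR-690 (0.95), miR-22* (0.94) and miR-143 (0.91), with 0.95, 0.97 and 0.90 after the subtraction. miR-126-5p, miR-690, miR-22* and miR-143 were each detected on 7 of the 8 arrays, miR-126-5p not on db/+ replicate 4. Subtracting a strain's mean leaves the spread between its arrays in place. The part of db/+ replicate 4 in these r was not tested. miR-451 was most like miR-148b (0.86), miR-16 (0.82) and miR-378* (0.80), with 0.88, 0.92 and 0.74.

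The lists of related miRNAs were read by their counts. Of 6 other miRNAs abundant in red cells 5 were tested and 0 passed limma, with a median log2 fold change of 0.050, where all 127 tested miRNAs had a median of 0.15. At an unadjusted p of 0.05, which 26.0% of all tested miRNAs reached, also 0 of these 5 passed, and SAM called 0. The smallest p were those of miR-15b (0.35 ± 0.24, SE, limma adjusted p = 0.353) and miR-92a (0.23 ± 0.24, adjusted p = 0.552). miR-16, which is abundant in red cells and is used with miR-451 to judge haemolysis, had a log2 fold change of 0.011 ± 0.15 (SE, limma adjusted p = 0.968).

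Of 10 other miRNAs studied in endothelium 8 were tested and 0 passed limma, with a median log2 fold change of -0.044. Against 26.0% of all tested miRNAs, 1 of these 8 passed at an unadjusted p of 0.05. The smallest p were those of miR-23b, of a cluster known for roles in vessel growth, with 0.32 ± 0.14 (SE, limma adjusted p = 0.182), and of miR-27a with -0.35 ± 0.19 (adjusted p = 0.265). Among 4 tested miRNAs of the vessel wall and of stellate cells, from a list of 6, 0 passed limma (1 at an unadjusted p of 0.05). miR-214 had 0.64 ± 0.25 (adjusted p = 0.143) and miR-143, a smooth muscle miRNA, 0.33 ± 0.24 (adjusted p = 0.362). SAM called miR-23b and miR-214, and arrays weighted by quality gave calls for miR-23b, miR-15b, miR-92a and the hepatocyte miR-101a. Of 5 tested hepatocyte miRNAs 0 passed limma (1 at an unadjusted p of 0.05; median 0.098), with the smallest p for miR-101a (-0.55 ± 0.23, adjusted p = 0.160) and miR-194 (0.22 ± 0.13, adjusted p = 0.304).

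Leukocyte miRNAs form the last list. Of 7, 4 were tested and 2 fell, against 7 of all 127 tested miRNAs (5.51%). These 2 were miR-142-3p, made throughout the blood-forming lineages, lower by 1.10 on the log2 scale (limma adjusted p = 0.0164), and miR-223, a miRNA of neutrophils and macrophages, lower by 0.74 (adjusted p = 0.0434). Their calls were lost in 3 and 6 of the 8 fits that left out 1 array, miR-142-3p without db/+ replicate 2, db/db replicate 2 or db/db replicate 4, and miR-223 in all but those without db/+ replicate 1 or db/db replicate 4. Both calls were also lost with no scaling, normexp, a higher floor, no filter on detection, raw medians and the deposited scores. Of 27 alternatives miR-142-3p was called in 18 and miR-223 in 13, and both were negative in all 27. Some of these could not turn the sign, since SAM, detection on all arrays only and no filter on detection left the levels unchanged. The summed level of the 4 tested leukocyte miRNAs was 487 to 751 on the db/+ arrays and 308 to 410 on the db/db arrays, on the linear scaled scale. On that scale miR-451 was 804 to 1942 on the db/+ arrays and 1222 to 2191 on the db/db arrays. The part of leukocyte RNA in the members' values was not tested. miR-142-3p over miR-451 was -3.30 ± 0.50 in db/+ and -4.85 ± 0.80 in db/db on the log2 scale (SD, n = 4 each), and the ranges just overlapped, with -3.72 the lowest db/+ value and -3.70 the highest db/db value. miR-223 over miR-126-3p was -2.66 ± 0.31 in db/+ and -3.51 ± 0.30 in db/db, with no overlap. Of the 4 ratios of these leukocyte miRNAs to miR-451 and miR-126-3p, 3 overlapped, among them miR-223 over miR-451 (-2.21 ± 0.59 and -3.40 ± 0.49) and miR-142-3p over miR-126-3p (-3.75 ± 0.48 and -4.96 ± 0.61). These ratios were chosen after the values were seen and were not tested.

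**Figure D4:**
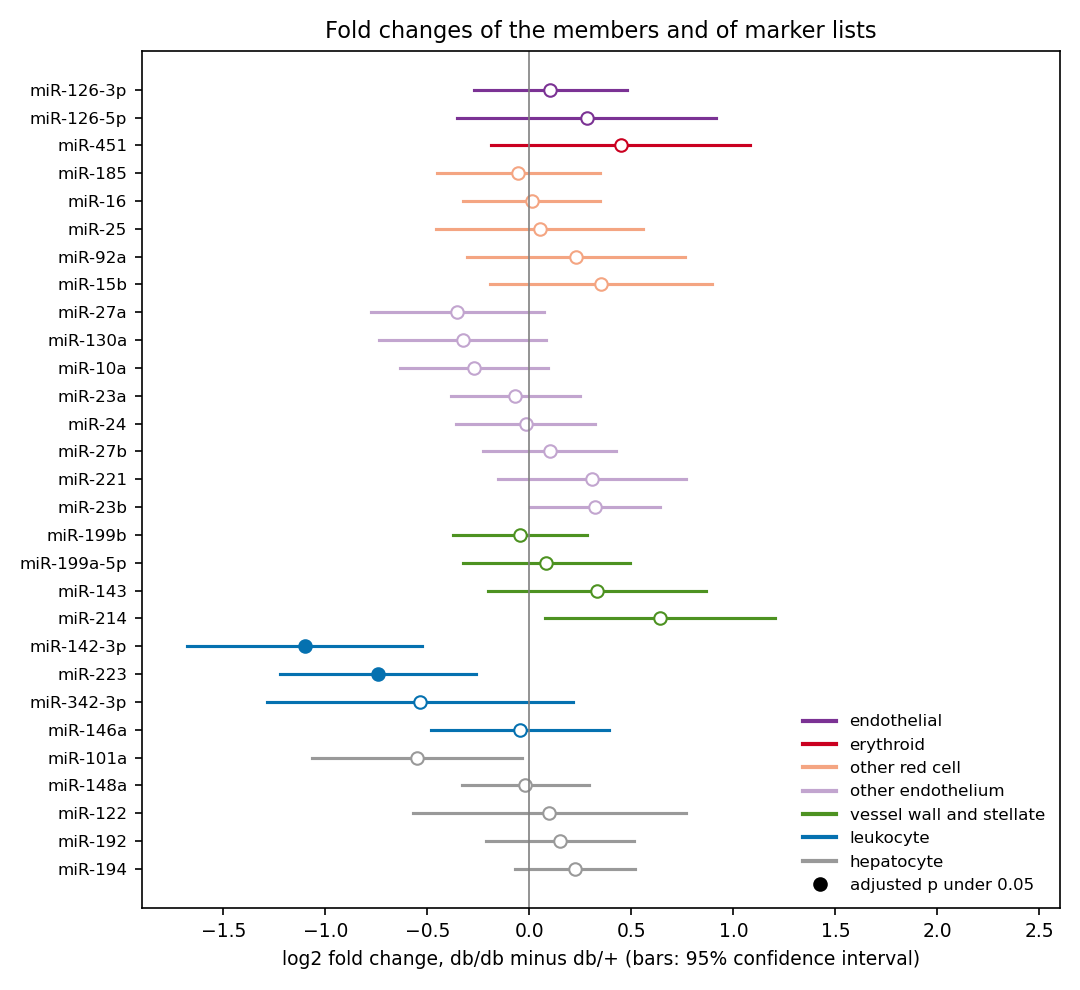
Log2 fold change, db/db minus db/+ (x axis), of the 3 tested members and of the tested miRNAs of each marker list (y axis, coloured by list), with 95% confidence intervals from limma; filled points passed an adjusted p of 0.05. Only miR-142-3p and miR-223 are filled, and the intervals of miR-126-3p, miR-126-5p and miR-451 all include 0.

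The authors' deposited scores covered 4 of the 5 members, without miR-144. The score of miR-126-3p was 2.48 ± 0.081 in db/+ and 2.53 ± 0.035 in db/db, and that of miR-451 was 2.38 ± 0.15 and 2.50 ± 0.075 (SD, n = 4 each). For miR-126-5p the db/+ scores were 1.34, 1.29, 1.32 and 0.82, with the low value on replicate 4 as in the scanner files, and the db/db scores lay from 1.27 to 1.38. miR-486 had 0.97 ± 0.22 in db/+ and 1.03 ± 0.16 in db/db. In these scores, whose log base is not stated, 0 of the 3 tested members passed limma (adjusted p from 0.430 to 0.615), and their differences were positive, as in the scanner files. In db/+ the order of the arrays differed from that of the levels. Replicate 4 had the lowest score of miR-126-3p (2.36) and of miR-451 (2.20). The lowest levels were on replicate 3 for miR-126-3p (10.50) and on replicate 1 for miR-451 (9.65). Without replicate 4 the db/+ scores of miR-126-5p (1.29 to 1.34) lay within the db/db range.

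**Figure D5:**
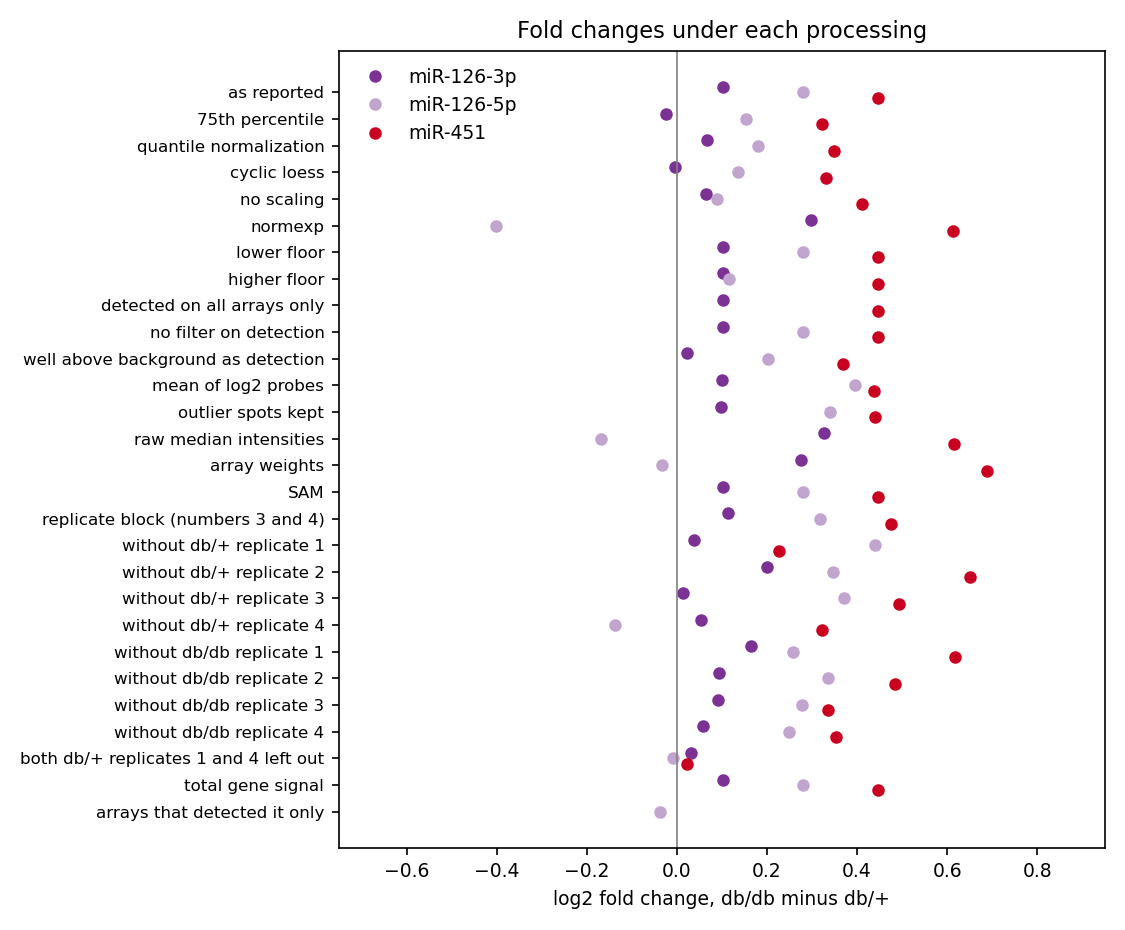
Log2 fold change, db/db minus db/+ (x axis), of miR-126-3p, miR-126-5p and miR-451 under each processing (y axis, with the values as reported at the top and the deposited scores left out). miR-451 is positive throughout, from 0.022 to 0.69, while miR-126-3p and miR-126-5p cross 0.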

How the data were processed

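RNA of each liver, labelled in 1 colour (Cy3), was measured on an Agilent mouse miRNA array, 1 array per animal, and samples were grouped by the strain in their titles. Per the file headers, the authors' spot intensity values come from version 9.5.3.1 of Feature Extraction (9.3.5 in the series text), after subtraction of background and with no scaling across arrays. The detection and outlier flags, 0 or 1, are of another kind, per the file headers. The deposited whole-series table repeats the raw median spot intensity of those files in each of its 12493 rows. The authors' deposited score per miRNA, global median normalized and log transformed per the series text, has no stated log base and was used as an alternative in its own units.

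Control spots and outlier spots (3.45% to 4.88% of miRNA spots per array) were left out. Spots were averaged per probe and probes per miRNA, the 89 miRNAs with detection on all 8 arrays gave the median by which an array was scaled, and values were floored at 4.59 before log2 was taken. limma 3.58.1 in R 4.3.3 tested the 127 miRNAs that every array of one or both strains detected (strain as the only term, two-sided, Benjamini-Hochberg, threshold 0.05). Ratios of 2 miRNAs within an array were compared with two-sided exact permutation tests. SAM used all 70 permutations of the labels, with its fudge factor at the 5th percentile of the standard deviations. limma and SAM were tested on simulated data, and matplotlib 3.10.9 drew the plots. Precision is limited by having 4 arrays per strain.

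The members and lists were chosen with earlier results of these data known. Named were the 5 members, miR-122, the 3 tested miRNAs most correlated with each tested member, and from each marker list every miRNA past the threshold, filled to 2 by smallest p. miRNA names are those of the array's design. Coordinates are those of the array files (mm9), and sequences come from RefSeq tables of GRCm38.p6. Within RefSeq, the array's miR-126-3p, miR-451 and miR-144 were matched to miR-126a-3p, miR-451a and miR-144-3p, the last by its distance of 139 bases to miR-451, the same in both sources.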

Additional observations from a re-analysis of the deposited data

How the results depend on the processing

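No alternative brought a tested member past the threshold. The smallest limma adjusted p was 0.135 for miR-126-3p, 0.313 for miR-126-5p and 0.0654 for miR-451 (the last with array weights, log2 fold change 0.69). miR-451 stayed positive in 27 of 27 alternatives. Some of these could not turn its sign: the lower and higher floors, detection on all arrays only, no filter on detection and SAM left it at 0.45. Well above background as detection gave 0.37. Without db/+ replicates 1 and 4 it was 0.022. The causes of the changes below were not tested.

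The log2 fold change of miR-126-3p turned to -0.024 with the 75th percentile and -0.0045 with cyclic loess. These scalings moved the median of all tested miRNAs by -0.13 and -0.12, quantile normalization by -0.13, raw median intensities by -0.24 and normexp by -0.33. miR-126-5p turned to -0.40 with normexp, -0.17 with raw median intensities, -0.033 with array weights, -0.0092 without db/+ replicates 1 and 4, and -0.038 over the arrays that detected it, an alternative chosen after seeing the data. The ratio difference of miR-126-3p over miR-122 was -0.052 with normexp, -0.080 with raw medians and -0.0037 with outlier spots kept. For miR-126-5p over miR-122 it was -0.75 and -0.57 with normexp and raw medians, and for miR-126-3p over miR-126-5p 0.70 and 0.49, with 0.042 without db/+ replicates 1 and 4. miR-451 over miR-126-3p was -0.010 without those 2 arrays.

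The 19 calls over all tested miRNAs became 0 with no scaling, 2 with normexp, 12 with a higher floor, 4 with no filter on detection, 1 with raw medians, 3 with the deposited scores, 42 with array weights, 33 with SAM and 9 without db/+ replicates 1 and 4. Leaving out 1 array gave 11 to 20 calls (11 without db/db replicate 2 and 12 without db/db replicate 3). It gave -0.14 to 0.44 for miR-126-5p, 0.014 to 0.20 for miR-126-3p and 0.23 to 0.65 for miR-451. For the ratio differences it gave -0.13 to 0.21 (miR-126-3p over miR-122), -0.32 to 0.61 (miR-126-5p over miR-122), -0.40 to 0.19 (miR-126-3p over miR-126-5p), 0.14 to 0.52 (miR-451 over miR-122) and 0.19 to 0.48 (miR-451 over miR-126-3p). Counts of db/db arrays above the db/+ mean and probe differences without 1 array were chosen after seeing the data.

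Titles of both strains share only the numbers 3 and 4, whose samples' deviations correlated at 0.036 and 0.31. With these as a replicate block, 20 miRNAs were called and miR-451 had a log2 fold change of 0.47 (limma adjusted p = 0.256). Scaling to the median over all miRNAs was not run, since on 3 arrays that median was below 0. Low signal limits miR-126-5p on db/+ replicate 4, and miR-144 and miR-486 on several arrays.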
